A study of Mus musculus with 5 samples.

Results

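This account covers Trp53, the gene of the tumor suppressor p53, and 9 genes that p53 is known to induce, 10 genes in all of the 32285 and 54987 features listed in the 2 sets of scRNA-Seq libraries. They were Cdkn1a, Mdm2, Ccng1, Bax, Phlda3, Trp53inp1, Zmat3, Eda2r and Bbc3, taken by symbol, and each symbol matched exactly 1 feature in both sets. The cells came from 4T1-Thy1.1 mammary fat pad tumors of 12-week-old BALB/c mice. 4T1 is a mouse triple-negative breast cancer line known to lack functional p53, while the host's fibroblasts, macrophages, neutrophils and T cells carry the normal gene. Treatment was 5 mg/kg of doxorubicin (DOX) into a vein, given 3 times at intervals of 3 days, and the control was saline. The groups were whole tumor labelled control, sensitive or resistant, where tumors that grew despite DOX were called resistant and those held back sensitive, and T cells isolated from sensitive or from resistant tumors. Each of the 5 groups was 1 library, and each T cell library pooled 3 tumors, so no difference between libraries has a replicate check and no p-value is given. Every group shares the 4T1-Thy1.1 line and the BALB/c host, and both T cell libraries came from DOX-treated mice, so they hold no untreated cells.

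p53 is a transcription factor that is kept scarce by Mdm2, a ubiquitin ligase, and that accumulates when DNA is broken. DOX traps topoisomerase II on DNA and makes such breaks. Stabilised p53 then induces genes that halt the cell cycle, such as Cdkn1a (the inhibitor p21), genes that promote apoptosis, such as Bax and Bbc3 (Puma), and Mdm2 itself, which closes a negative feedback loop. Several of these genes also respond to other signals, and Cdkn1a in particular is induced in many settings without p53.

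The binding motif of p53 was searched in RefSeq promoter windows (GRCm38.p6, 250 bases before to 50 after a transcription start), of which 8 of the 10 genes had at least 1. No window was listed for Trp53inp1 or Zmat3. p53 binds a pair of decamers, each centred on a C, a pair of A or T bases and a G, and the decamer reads the same on both strands. An exact decamer lay in 5 of the 11 windows, which belonged to Trp53, Cdkn1a, Mdm2, Ccng1 and Bax, against 8.36% of all 32851 mouse windows. A pair of adjoining decamers with at most 1 mismatch was held by 0.0883% of all windows, and by those of Cdkn1a and Ccng1. Stretches of 4 of the 5 are shown so that the motif can be read in genes that differed widely between cell types (Cdkn1a and Ccng1) and in genes that differed less between cancer-like and fibroblast-like cells (Mdm2 and Bax). Phlda3 and Eda2r also differed widely between these types, and their windows held 0 exact decamers. A link between motif and level was not tested. Capitals mark the paired decamers in the Cdkn1a and Ccng1 stretches and a single decamer in the Mdm2 and Bax stretches. The Cdkn1a stretch (chr17:29090908-29090967, plus strand, GRCm38.p6) lies upstream of the more distal of its 2 listed starts, and its motif ends 32 bases before that start. The Ccng1 stretch (chr11:40755442-40755501, minus strand) has its motif 176 to 195 bases before the start. The Mdm2 (chr10:117710915-117710964, minus strand) and Bax (chr7:45467070-45467119, minus strand) decamers lie 177 to 186 and 192 to 201 bases before their starts. A match is a description of the letters and was not tested for binding. They read:
Cdkn1a: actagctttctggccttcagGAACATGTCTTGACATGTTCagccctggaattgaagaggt
Ccng1: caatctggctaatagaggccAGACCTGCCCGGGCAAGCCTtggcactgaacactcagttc
Mdm2: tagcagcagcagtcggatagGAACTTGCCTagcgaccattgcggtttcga
Bax: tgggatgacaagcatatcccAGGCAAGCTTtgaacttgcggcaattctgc

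Cells were grouped by clustering without these genes and the other p53 genes listed, and clusters were named "-like" from marker lists. The T cell libraries, sensitive before resistant, held 120 and 159 cancer-like cells, 838 and 605 fibroblast-like, 213 and 182 macrophage-like, 137 and 159 neutrophil-like and 1946 and 1834 T cell-like cells. Cancer cells were depleted there by their Thy1.1 (CD90.1) and other non-T cells by a T cell isolation kit, so these are cells that escaped depletion. The marker lists separated the types. Epithelial markers summed to 7880 and 7454 counts per 1e6 UMIs (CPM) in cancer-like cells of the sensitive and resistant library and to 15.9 to 85.3 CPM in the other types. Fibroblast markers summed to 39292 and 38259 CPM in fibroblast-like cells and to 164.0 and 154.1 CPM in cancer-like cells. Total UMIs were 31690845 and 35908799 in the T cell libraries and 537293 to 1731940 in the whole-tumor libraries. Of the sensitive library's barcodes 5.9% exceeded the mitochondrial limit and of the resistant library's 45.75%, and 31 barcodes occurred in both. Whole-tumor and T cell libraries list different features and were not set against each other. In what follows a level is a gene's UMIs summed over the cells of a type per 1e6 UMIs of those cells, brackets give 95% intervals (exact Poisson for a level, exact conditional binomial for a ratio), and all intervals and limits cover counting error only. A gene was called when its ratio passed 2-fold with at least 20 UMIs over both sides.

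**Figure D1:**
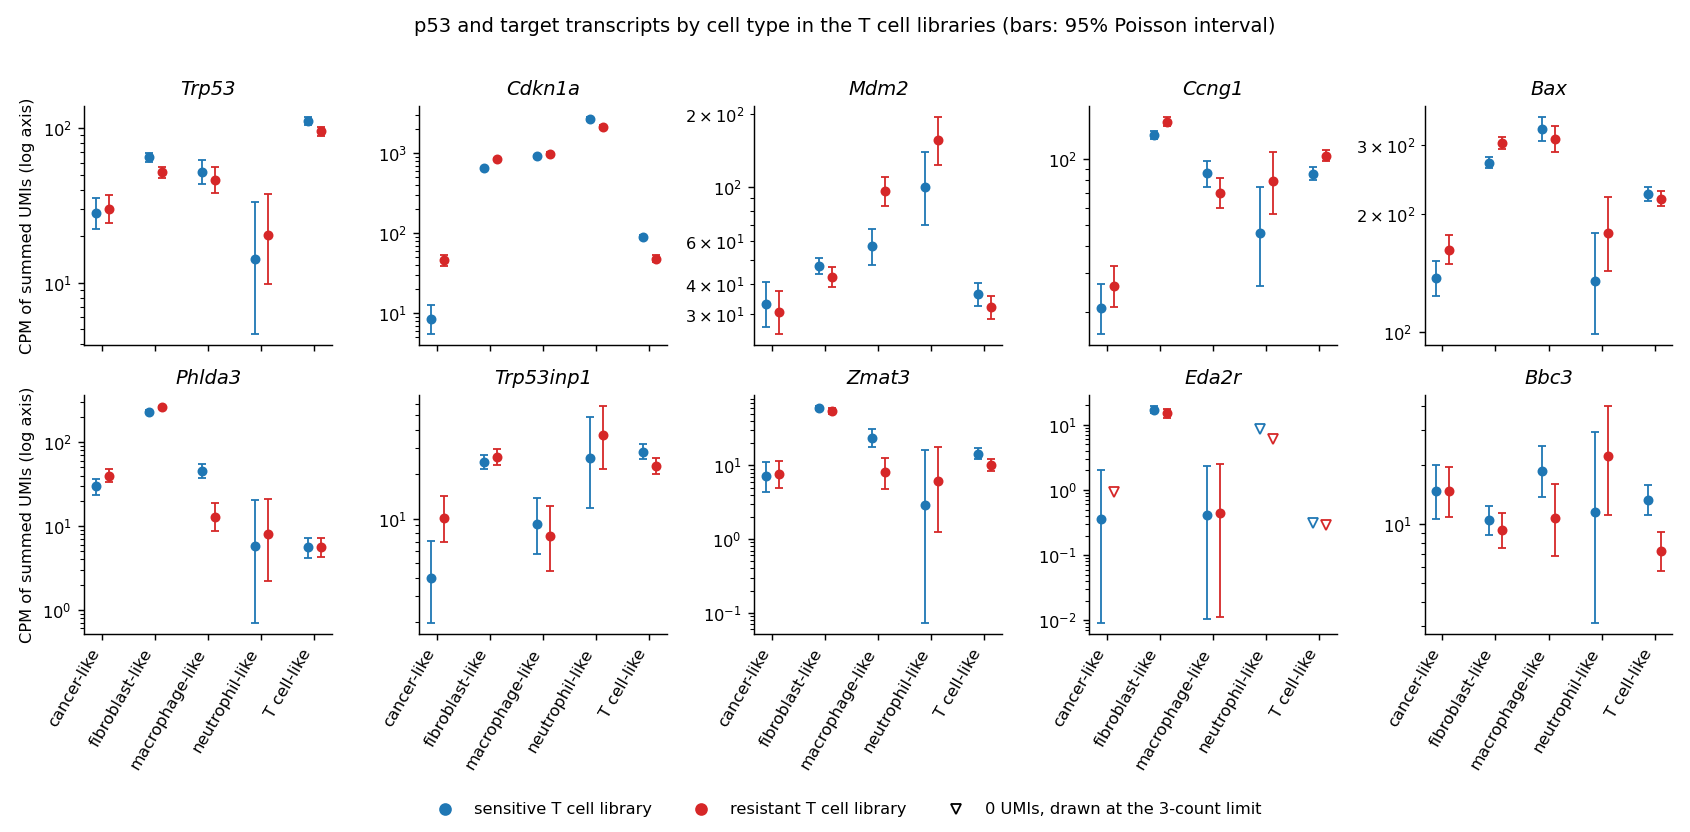
Level of each gene by cell type in the sensitive (blue) and resistant (red) T cell library, as CPM on a log axis of its own for each gene, with exact 95% Poisson intervals; open triangles mark 0 UMIs, drawn at the level that 3 counts would give. Cdkn1a runs from 8.60 CPM in cancer-like cells to 2686 CPM in neutrophil-like cells of the sensitive library, and Eda2r stands out in fibroblast-like cells.

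The question of the main comparison was how far transcripts of p53 targets in tumor cells without p53 differ from those in host cells of the same DOX-treated tumor. In the sensitive T cell library 7 of the 10 genes were at least 2-fold lower in cancer-like than in fibroblast-like cells, where 24.3% of the 12487 genes with enough UMIs were, and 0 were at least 2-fold higher, where 17.3% of genes were. In the resistant library 6 of 10 were lower, against 22.4% of 12210 genes, and 0 were higher, against 18.6%. The median log2 ratio of the 10 genes was -2.63 and -1.94 in the sensitive and resistant library, against 0.01 and 0.07 over all genes with enough UMIs. The 6 genes called lower in both libraries were Cdkn1a, Ccng1, Phlda3, Trp53inp1, Zmat3 and Eda2r, and Trp53 was called in the sensitive library alone.

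Trp53 itself was transcribed in cancer-like cells. Its levels there were 28.3 CPM [22.4, 35.3] and 30.1 CPM [24.5, 36.7], from 79 and 98 UMIs, sensitive library before resistant. Fibroblast-like cells had 65.1 and 52.0 CPM, macrophage-like cells 52.0 and 46.5 CPM and T cell-like cells 112.0 and 95.6 CPM. Neutrophil-like cells, with 5 and 10 UMIs, were the only type with a lower value than cancer-like cells, at 14.3 and 20.3 CPM, and their intervals overlapped those of cancer-like cells. The fibroblast-like level was 2.30-fold [1.83, 2.94] and 1.72-fold [1.39, 2.16] that of cancer-like cells in the sensitive and resistant library, and the T cell-like level 3.96-fold [3.15, 5.04] and 3.17-fold [2.58, 3.94]. The cancer-like over fibroblast-like ratio of Trp53 in the sensitive library was 0.43, and it was 0.61 after thinning every cell to 1000 randomly drawn UMIs, which ends its call. The counts say how much transcript was seen and not whether it encodes a working protein.

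Cdkn1a, which encodes the cyclin-dependent kinase inhibitor p21 and is the best known p53 target, differed widely between the types. Cancer-like cells had 8.60 CPM [5.51, 12.8] in the sensitive library, from 24 UMIs in 14 of 120 cells, and 45.8 CPM [38.8, 53.8] in the resistant one, from 149 UMIs in 34 of 159 cells. Fibroblast-like cells had 650.0 CPM [636.4, 663.8] and 862.1 CPM [844.4, 880.2]. The fibroblast-like level was therefore 75.6-fold [50.8, 118.1] and 18.8-fold [16.0, 22.3] higher. In the sensitive library the ratio rests on few UMIs, and the cancer-like level was 0.013 of the fibroblast-like level over summed UMIs, 0.034 as a mean over cells and 0.039 after thinning. Macrophage-like cells had 916.8 and 989.3 CPM, and neutrophil-like cells, short-lived granulocytes that do not divide, had the highest values of the 5 types at 2686 and 2156 CPM. T cell-like cells were low, at 90.1 CPM [84.2, 96.2] and 48.4 CPM [44.2, 52.8], and in the resistant library they did not differ from cancer-like cells beyond counting error (ratio 0.95 [0.78, 1.14]). Per cell the fibroblast-like cells carried 10.34 and 14.84 Cdkn1a UMIs and the cancer-like cells 0.20 and 0.94, although median depth was higher in cancer-like cells (20434 and 20898 UMIs) than in fibroblast-like cells (13206 and 14011). After every cell was thinned to 1000 UMIs, Cdkn1a was seen in 42.2% [38.8, 45.6] and 47.3% [43.2, 51.3] of fibroblast-like cells (Clopper-Pearson intervals), in 3.33% [0.92, 8.31] and 4.43% [1.80, 8.91] of cancer-like cells and in 4.89% and 2.57% of T cell-like cells. Without thinning the shares were 78.4% and 90.9%, 11.7% and 21.4%, and 14.9% and 11.3%. Thinning left out 11, 0 and 25 fibroblast-like, cancer-like and T cell-like cells of the sensitive library and 0, 1 and 5 of the resistant library.

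The small Cdkn1a signal in cancer-like cells was held by few cells. The 3 cells with most UMIs carried 54.2% and 44.3% of them in the 2 libraries. In the resistant library the 34 cancer-like cells with a Cdkn1a UMI had fibroblast markers summing to 437.8 CPM, against 47.4 CPM in the cells without, and neutrophil markers at 504.2 against 58.8 CPM. In the sensitive library the 14 cells with a UMI had fibroblast markers at 56.1 against 183.6 CPM in the other 106, and neutrophil markers at 469.6 against 110.0 CPM. Epithelial markers were not lower in the cells with Cdkn1a (11310 against 7259 CPM in the sensitive, 9794 against 6574 CPM in the resistant library). The part that RNA from other cells has in these counts was not tested.

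The other genes of cell cycle arrest and growth control followed. Ccng1 encodes cyclin G1, which recruits a phosphatase to Mdm2. It was at 20.8 CPM [15.8, 26.9] and 26.1 CPM [20.9, 32.3] in cancer-like cells and at 129.5 and 149.1 CPM in fibroblast-like cells, so that fibroblast-like cells were 6.23-fold [4.80, 8.24] and 5.70-fold [4.58, 7.18] higher in the sensitive and resistant library. As cancer-like over fibroblast-like ratios these are 0.16 and 0.18, and after thinning Ccng1 was at 0.25 and 0.32, with 0.33 as a mean over cells in the resistant library. Its cancer-like level was also the lowest of the 5 types in both libraries. The next lowest was the neutrophil-like level in the sensitive library, at 45.8 CPM [26.2, 74.4], whose interval meets that of cancer-like cells, and the macrophage-like level in the resistant library, at 70.2 CPM [59.6, 82.1]. Phlda3, which encodes a pleckstrin-homology protein that restrains Akt, was at 29.7 and 40.0 CPM in cancer-like and 231.7 and 260.2 CPM in fibroblast-like cells, a ratio of 7.79-fold [6.27, 9.81] and 6.51-fold [5.45, 7.82]. Inverted, the Phlda3 ratio of the sensitive library was 0.13, and 0.067 after thinning. T cell-like cells had less Phlda3 than cancer-like cells, at 5.56 and 5.64 CPM, so the gene was not uniformly higher in cells with p53.

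Zmat3, which encodes an RNA-binding zinc finger protein, was at 7.16 CPM [4.38, 11.1] and 7.69 CPM [4.98, 11.3] in cancer-like cells and at 59.6 and 54.6 CPM in fibroblast-like cells. Fibroblast-like cells were 8.33-fold [5.35, 13.7] and 7.11-fold [4.76, 11.1] higher. Inverted, the Zmat3 ratio of the resistant library was 0.14, and 0.25 as a mean over cells. Trp53inp1, a nuclear protein of the p53 stress response, was at 3.94 CPM [1.97, 7.05] and 10.15 CPM [6.99, 14.3] in cancer-like cells, from 11 and 33 UMIs. Fibroblast-like cells had 24.1 and 26.1 CPM and T cell-like cells 28.4 and 22.7 CPM, and the fibroblast-like level was 6.11-fold [3.37, 12.4] and 2.57-fold [1.79, 3.81] that of cancer-like cells. Thinning ended the Trp53inp1 call in the resistant library, where the cancer-like over fibroblast-like ratio went from 0.39 to 0.85.

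Eda2r encodes a receptor of the tumor necrosis factor family that binds ectodysplasin A2. In the T cell libraries it was close to exclusive to fibroblast-like cells, with 227 and 157 UMIs there, or 17.0 CPM [14.9, 19.4] and 15.1 CPM [12.8, 17.6]. Cancer-like cells had 1 and 0 UMIs, macrophage-like cells 1 and 1, and neutrophil-like and T cell-like cells 0 in both. In T cell-like cells 0 UMIs of 9715940 and 10289334 allowed a level of up to 0.31 and 0.29 CPM. Fibroblast-like cells were 47.5-fold [8.45, 1886] higher than cancer-like cells in the sensitive library, and at least 16.3-fold higher in the resistant library, where the 0 was set to 3 counts over the cancer-like cells. The lower bound of the resistant library's ratio by the interval used for the other genes was 13.1-fold. After thinning, 0 cancer-like cells and 21 and 15 fibroblast-like cells had an Eda2r UMI, which is too few to bound the ratio at 2-fold.

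The 3 remaining targets did not pass 2-fold. Bax, the pore-forming effector of apoptosis, was at 137.2 CPM [123.8, 151.6] and 162.1 CPM [148.6, 176.6] in cancer-like and at 269.9 and 303.6 CPM in fibroblast-like cells, a fibroblast-like excess of 1.97-fold [1.77, 2.19] and 1.87-fold [1.71, 2.06] that was just short of the threshold. After thinning, the cancer-like over fibroblast-like ratio of Bax was 0.41 and 0.47, past it in both libraries. Mdm2, the ligase that degrades p53, was at 33.0 and 30.5 CPM in cancer-like and at 47.3 and 42.6 CPM in fibroblast-like cells, 1.43-fold [1.15, 1.80] and 1.40-fold [1.12, 1.76]. Against T cell-like cells, at 36.1 and 32.0 CPM, the Mdm2 ratio was 0.91 [0.72, 1.15] and 0.95 [0.75, 1.20]. Bbc3, a BH3-only trigger of apoptosis, was 1.41-fold [0.97, 2.01] and 1.58-fold [1.10, 2.26] higher in cancer-like cells, at 14.7 and 14.8 CPM against 10.4 and 9.32 CPM. The genes thus did not share a single ratio: Cdkn1a and Eda2r lay at one end and Bbc3 at the other.

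**Figure D2:**
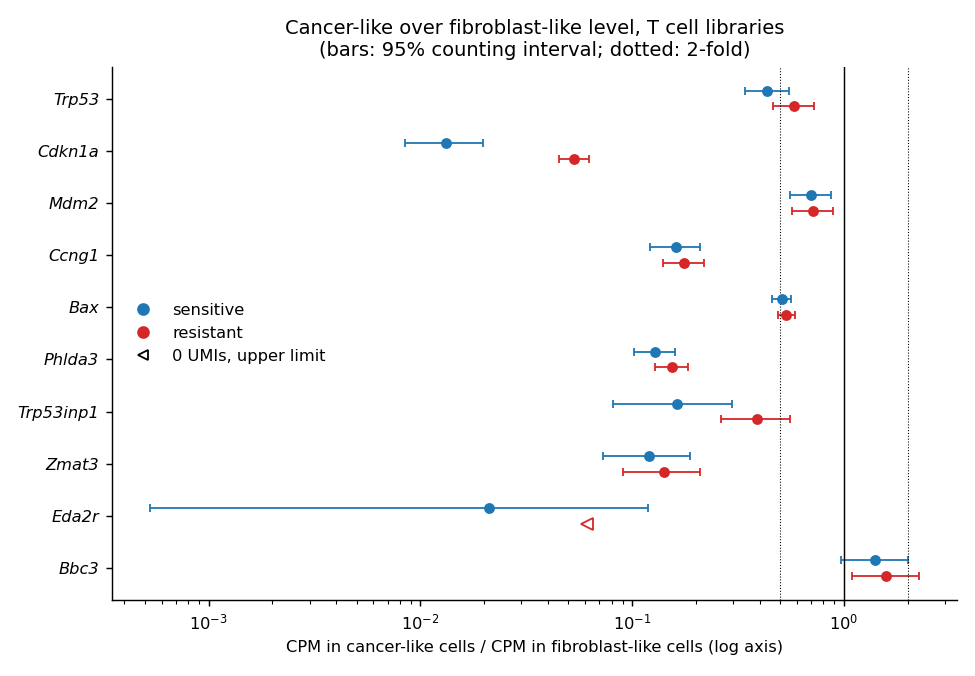
Ratio of the cancer-like to the fibroblast-like level of each gene on a log axis, with 95% counting intervals, in the sensitive (blue) and resistant (red) T cell library; the solid line marks equal levels, dotted lines 2-fold, and the open triangle an upper limit from 0 UMIs. Ratios run from 0.013 for Cdkn1a in the sensitive library to 1.58 for Bbc3 in the resistant library.

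Against the other host cells the picture was mixed, and Eda2r had too few UMIs to be compared. Among the other 9 genes, 5 were at least 2-fold lower in cancer-like than in macrophage-like cells of the sensitive library and 0 higher, where 18.5% and 28.8% of all genes with enough UMIs were. In the resistant library 3 were lower and 1 higher, against 17.2% and 29.5%. Cdkn1a was 106.7-fold [71.5, 166.8] and 21.6-fold [18.3, 25.6] higher in macrophage-like than in cancer-like cells, and Ccng1 4.15-fold [3.09, 5.65] and 2.68-fold [2.05, 3.54]. The gene that was higher in cancer-like cells was Phlda3, in the resistant library, by 3.09-fold [2.05, 4.79].

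Against neutrophil-like cells 4 genes were lower in each library (Cdkn1a, Mdm2, Ccng1 and Trp53inp1), where 15.1% and 15.6% of genes were lower. In the sensitive and resistant library 2 and 1 genes were higher, where 49.9% and 51.3% of genes were higher, and the median gene itself was 1.99-fold and 2.07-fold higher in cancer-like cells. Mdm2 was 3.04-fold [2.0, 4.53] and 5.13-fold [3.76, 6.99] higher in neutrophil-like cells, at 100.2 CPM [69.8, 139.4] and 156.3 CPM [123.4, 195.4], its highest values of the 5 types in both libraries. Against T cell-like cells 5 genes were lower and 1 higher in the sensitive library, where 22.9% and 21.7% of genes were, and 3 lower and 2 higher in the resistant library, where 21% and 24.1% were. Trp53, Ccng1 and Trp53inp1 were lower than in T cell-like cells in both libraries. The counts against T cell-like cells lay near the background in the resistant library.

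The other p53 genes on a fixed list did not all go the same way. Of 29 further targets, 11 were lower and 5 higher in cancer-like than in fibroblast-like cells of the sensitive library, and 10 lower and 6 higher among the 28 with enough UMIs in the resistant library, with a median log2 ratio of -0.55 and -0.47. Over all genes with enough UMIs, 24.3% and 22.4% were lower and 17.3% and 18.6% higher, so the count of higher targets lay near the background. In both libraries 9 were lower and 5 higher. The lower ones included Ak1, a nucleotide kinase, at 19.3 and 12.0 CPM in cancer-like against 132.3 and 143.6 CPM in fibroblast-like cells. Ephx1, a microsomal epoxide hydrolase, was at 3.58 and 14.5 against 83.3 and 108.7 CPM. Sesn2, a stress-induced inhibitor of growth signalling, was at 2.15 and 0.92 against 13.1 and 14.4 CPM, and Gdf15, a secreted stress cytokine, at 0 and 3.08 against 21.5 and 20.4 CPM. Pmaip1 (Noxa), a BH3-only protein, had 0 and 4 UMIs in cancer-like cells against 57 and 47.

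Higher in cancer-like cells were Perp, a desmosomal protein of epithelia, at 140.8 and 131.4 CPM against 0.75 and 0.29 CPM. Gadd45a, a growth arrest gene that several stress pathways induce, was 9.66-fold [8.46, 11.1] and 11.8-fold [9.98, 13.9] higher there, and Ddb2, a DNA damage sensor of nucleotide excision repair, 4.04-fold [2.46, 6.59] and 4.39-fold [2.60, 7.496]. Of 10 regulators of p53, 8 had enough UMIs. Chek1, a checkpoint kinase of dividing cells, was 13.2-fold [7.44, 24.5] and 12.52-fold [6.35, 26.9] higher in cancer-like cells, where 10 proliferation genes summed to 595.3 and 414.7 CPM against 65.8 and 54.45 CPM in fibroblast-like cells. Cdkn2a, which encodes p16 and the Mdm2 inhibitor p19Arf, had 0 and 1 UMIs in cancer-like cells against 255 and 94 in fibroblast-like cells. Mdm4, the partner of Mdm2, was close to level, with ratios of 1.08 and 1.24.

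Immediate-early genes such as Fos, which warm enzymatic digestion can raise and which are measured beside Cdkn1a for that reason, summed over 10 genes to 6717 and 7389 CPM in cancer-like and 8984 and 7179 CPM in fibroblast-like cells. They reached 18013 and 13470 CPM in neutrophil-like cells and were lowest in T cell-like cells, at 3391 and 1820 CPM. Median mitochondrial shares were 3.31% and 4.72% in cancer-like and 1.84% and 3.16% in fibroblast-like cells. Their part in the differences was not tested.

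Fibroblast-like cells fell into 4 clusters, and in each of the 3 that both libraries filled, all 6 genes called lower in both libraries were above the cancer-like level of the same library. Cdkn1a was at 1028 and 984 CPM in cluster 2 of the sensitive and resistant library (leading genes Clec3b and Pi16), at 570.2 and 713.2 CPM in cluster 4 (Cpxm1 and Sfrp2) and at 481.2 and 811.9 CPM in cluster 12 (Tagln and Acta2, contractile genes). Phlda3 was lowest in cluster 4, at 167.4 and 173.8 CPM, and reached 338.5 CPM in cluster 12 of the resistant library. Within cluster 12 the resistant library had more Ccng1 (229.9 CPM [212.7, 248.2] against 155.5 CPM [143.6, 168.1]), Bax (352.8 against 264.3 CPM) and Phlda3 (338.5 against 220.1 CPM), with intervals apart. Cluster 14 held 141 cells of the sensitive library but only 12 of the resistant one.

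Within fibroblast-like cells, target transcripts were found together. After thinning, the other 8 targets summed to 1060 CPM in the 349 cells of the sensitive library with a Cdkn1a UMI and to 669.5 CPM in the 478 without (ratio 1.58 [1.36, 1.84]). In the resistant library the values were 1003 CPM in 286 cells and 711.6 CPM in 319 (1.41 [1.18, 1.69]). Taken singly, the interval excluded 1 for Bax (1.54 [1.17, 2.03]) and Phlda3 (1.68 [1.265, 2.23]) in the sensitive library. In the resistant library it did so for Mdm2 (5.58 [2.10, 18.65]) alone, so no gene did so in both. Cells were pooled over the fibroblast-like clusters, whose part was not tested. T cell-like cells gave 617.0 against 377.7 CPM (1.63 [1.23, 2.14]) and 744.7 against 393.4 CPM (1.89 [1.31, 2.66]), and macrophage-like cells ratios of 1.75 [1.22, 2.51] and 1.69 [1.10, 2.60]. In T cell-like cells the largest single-gene ratios were those of Phlda3, from 5 against 2 and 4 against 7 UMIs. The only other interval there to exclude 1 was that of Ccng1 in the sensitive library (2.32 [1.34, 3.79]). Phlda3 had 9 against 0 UMIs in macrophage-like cells of the sensitive library. The part of RNA from other cells in these values was not tested. Neutrophil-like cells gave ratios of 1.21 [0.54, 3.21] and 1.71 [0.91, 3.49], whose intervals include 1. In cancer-like cells the ratios were 6.59 [1.95, 17.8] and 9.44 [4.65, 18.2], from 5 and 14 UMIs in only 4 and 7 cells with Cdkn1a. Before thinning, the other 8 targets summed to 261.7 CPM (112 UMIs) in the 14 cancer-like cells with Cdkn1a and to 244.1 CPM (577 UMIs) in those without in the sensitive library, and to 473.8 (421 UMIs) against 222.7 CPM (526 UMIs) in the resistant library, so the contrast was much smaller than after thinning. The 14 and 34 cancer-like cells with Cdkn1a before thinning had more neutrophil markers than the others in both libraries and more fibroblast markers in the resistant library, as given above; the 4 and 7 cells were not examined apart. These are cells of 1 library each, described without a test.

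The sensitive and resistant T cell libraries were then compared within each cell type. Over the 5 types, 42 gene and type pairs had enough UMIs and 4 passed 2-fold, with 2 lower and 2 higher in the sensitive library. Over all genes with enough UMIs, 4.96% to 10.3% passed 2-fold in the single types. Fibroblast-like cells had 0 of 10 genes past 2-fold, where 6.02% of genes were, and all ratios lay between 0.75 and 1.25. Cdkn1a was lower in the sensitive library, at 650.0 against 862.1 CPM (ratio 0.75 [0.73, 0.78]), but the ratio was 0.99 after thinning. The libraries also filled the fibroblast-like clusters unequally. Cluster 2 held 35.2% and 58.8% of the fibroblast-like cells, with Cdkn1a at 1028 against 983.8 CPM, and cluster 14 held 16.8% and 1.98%. Trp53 was higher in the sensitive library, at 65.1 against 52.0 CPM (1.25 [1.12, 1.40]). Neutrophil-like cells had 0 of 5 genes past 2-fold, against 10.3% of genes, with Cdkn1a at 2686 against 2156 CPM (1.25 [1.14, 1.36]) and Mdm2 at 100.2 against 156.3 CPM (0.64 [0.42, 0.97]). With a higher minimum of detected genes, Mdm2 was at a ratio of 0.40 and Ccng1 at 0.24 (0.58 otherwise), both past 2-fold.

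In cancer-like cells 2 of 9 genes passed 2-fold, against 5.16% of genes. Both were lower in the sensitive library: Cdkn1a, at 8.60 against 45.8 CPM, a ratio of 0.19 [0.12, 0.29], and Trp53inp1, at 3.94 against 10.15 CPM, a ratio of 0.39 [0.18, 0.79]. Taken as the mean over cells of each cell's CPM, which gives deep cells no extra weight, the Cdkn1a ratio was 0.44. The Trp53inp1 ratio was 0.51 to 0.54, short of 2-fold, under 4 of the alternatives. The other 7 genes had ratios of 0.74 to 1.08, and the intervals of 5 of them included 1. The highest single cell held 19.5% of the resistant library's Cdkn1a UMIs in cancer-like cells, and the marker levels of the cells that held them are given above.

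In macrophage-like cells 2 of 9 genes passed 2-fold, against 4.96% of genes, and both were higher in the sensitive library. Phlda3 was at 45.0 CPM [36.9, 54.3] against 12.96 CPM [8.68, 18.6] (3.47-fold [2.28, 5.42]), and Zmat3 at 23.7 against 8.05 CPM (2.95-fold [1.71, 5.32]). Part of the Phlda3 difference lay in 2 small clusters that the sensitive library supplied almost alone, cluster 19 (Mrc1 and Cd163, 24 of 25 cells) at 124.6 CPM and cluster 21 (16 of 16 cells) at 70.5 CPM. Within cluster 5, the main C1q-expressing cluster, Phlda3 was at 29.5 CPM [22.3, 38.3] against 12.98 CPM [8.69, 18.6] and Zmat3 at 22.6 CPM [16.4, 30.5] against 8.05 CPM [4.77, 12.7]. Without clusters 19 and 21 the Phlda3 ratio was 2.27. Fibroblast markers in macrophage-like cells summed to 42.9 against 15.2 CPM, and their part in the Phlda3 and Zmat3 values was not tested. Mdm2 went the other way, at 57.0 against 96.1 CPM (0.59 [0.48, 0.74]), and was at 0.49, past 2-fold, without clusters 19 and 21. Neutrophil markers in macrophage-like cells summed to 499.8 against 1060 CPM and immediate-early genes to 4763 against 7134 CPM. Their part in the Mdm2 ratio was not tested.

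In T cell-like cells 0 of 9 genes passed 2-fold, against 6.97% of genes. Cdkn1a came closest, at 90.1 against 48.4 CPM (1.86-fold [1.67, 2.08]), followed by Bbc3 at 13.3 against 7.29 CPM (1.82-fold [1.36, 2.46]). Both passed 2-fold under other settings, with Cdkn1a at 2.48 after thinning and Bbc3 at 2.09 without the deepest 10% of cells. Cdkn1a differed widely between T cell-like clusters. In cluster 17 (Il17a, Trdc) it was at 406.1 CPM [335.6, 487.1] in 79 cells of the sensitive library and at 97.2 CPM [31.6, 226.9] in 14 of the resistant library. It was at 236.6 and 188.3 CPM in cluster 7 (Il13, Il4, Cd4), and at 9.32 and 14.5 CPM in cluster 0 (Cd8a, Cd8b1, Pdcd1), which held 251 and 852 cells. Without clusters 7 and 17, of which over 80% of cells came from the sensitive library after weighting libraries equally, the Cdkn1a ratio was 1.10. The shares of the clusters and the levels within them were not separated. Macrophage markers in T cell-like cells summed to 337.4 against 168.3 CPM and fibroblast markers to 85.3 against 31.97 CPM. Immediate-early genes summed to 3391 against 1820 CPM, and the median mitochondrial share was 2.54% against 5.74%. The part of these in the Cdkn1a ratio was not tested.

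**Figure D3:**
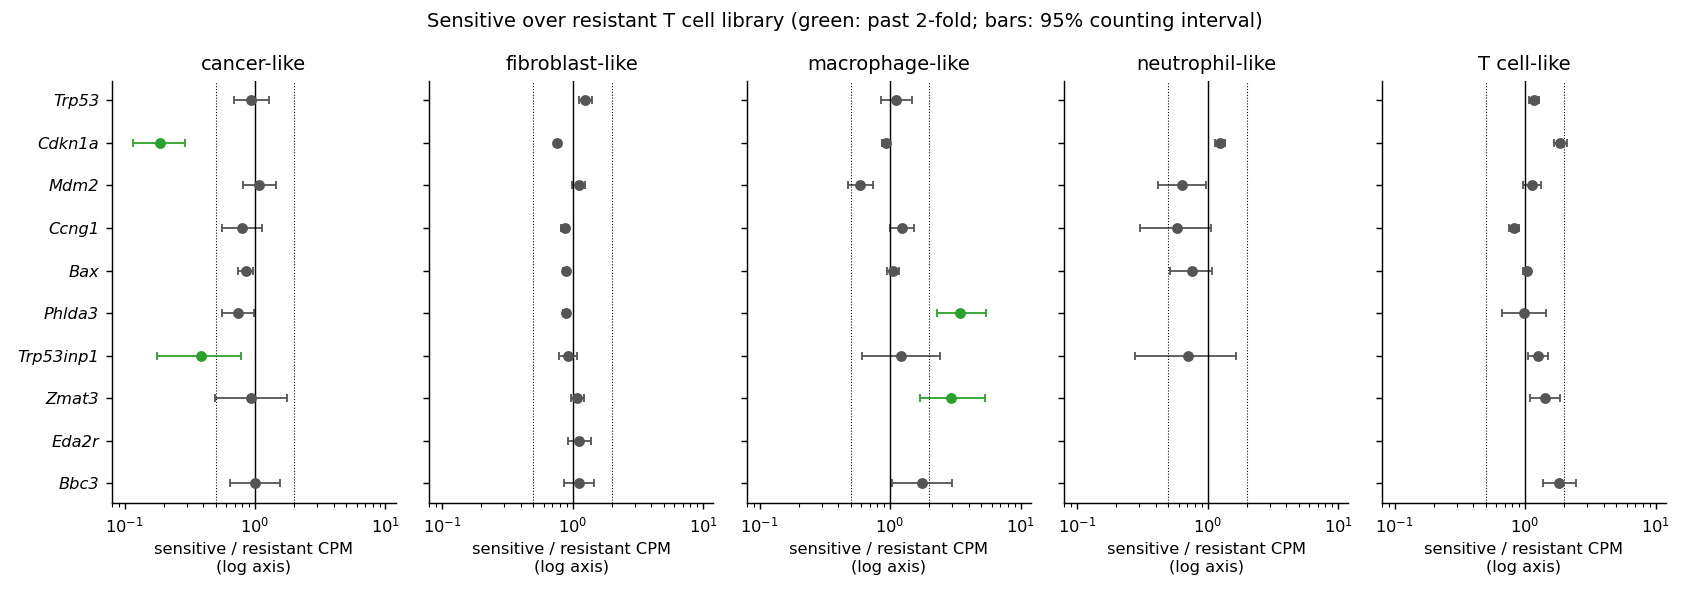
Ratio of the level in the sensitive to that in the resistant T cell library, by gene and cell type, on a log axis with 95% counting intervals; green points passed 2-fold and genes under 20 UMIs are left out. Only Cdkn1a and Trp53inp1 in cancer-like cells and Phlda3 and Zmat3 in macrophage-like cells lie past a dotted 2-fold line.

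The whole-tumor libraries offered the comparison with a tumor labelled as the saline control, at far lower depth. They held 34, 3 and 42 cancer-like, 17, 5 and 18 fibroblast-like, 24, 17 and 49 macrophage-like, 310, 234 and 135 neutrophil-like and 90, 6 and 12 T cell-like cells in the control-labelled, sensitive-labelled and resistant-labelled library. The library labelled resistant carries a source name that speaks of a sensitive tumor, and it is called by its label here. By scRNA-Seq the paper reports a larger T cell share in sensitive than in saline-treated or resistant tumors. Here T cell-like cells were 90 of 488 kept cells in the control-labelled library. They were 6 of 269 in the sensitive-labelled and 12 of 263 in the resistant-labelled library. Whether the labels match the tumors was not tested, and control and treated mean the labels. The 5 cells placed with fibroblasts in the sensitive-labelled library had epithelial markers at 5503 CPM and fibroblast markers at 352.7 CPM, against their name, and types under 10 cells were not compared. Of 25 gene and type pairs with enough UMIs, 8 passed 2-fold between a treated and the control-labelled library, 7 of them higher in the treated library. Over all genes with enough UMIs, 12.2% to 21.9% passed 2-fold in the single comparisons. In each of them more genes were higher than lower in the treated library. Eda2r had 0 UMIs in all 3 libraries, Zmat3 had at most 4 in any type, and Phlda3 had too few to compare outside cancer-like cells.

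Macrophage-like cells had more Mdm2 and Cdkn1a in both treated libraries. Mdm2 was at 64.4 CPM [25.9, 132.8] in the control-labelled library, from 7 UMIs, at 283.6 CPM [179.8, 425.5] in the sensitive-labelled and at 169.8 CPM [127.2, 222.1] in the resistant-labelled library, which was 4.40-fold [1.83, 12.1] and 2.63-fold [1.19, 6.87] higher. The Mdm2 ratio reached 6.72 as a mean over cells in the sensitive-labelled library and 6.79 with cell types set from each cell's own marker UMIs in the resistant-labelled library. Cdkn1a was at 524.7 CPM [397.4, 679.9], 838.5 CPM [651.1, 1063] and 919.5 CPM [816.2, 1032], or 1.60-fold [1.11, 2.31] and 1.75-fold [1.31, 2.37] higher and short of the threshold. Ccng1 had 3, 3 and 33 UMIs, or 27.6, 37.0 and 105.7 CPM, and was 3.83-fold [1.20, 19.5] higher in the resistant-labelled library. A single cell held 30.4% of the Mdm2 UMIs in the sensitive-labelled and 22.6% in the resistant-labelled library, and after thinning to 500 UMIs the Cdkn1a ratio of the resistant-labelled library was 0.87. In all, 1 of 3 genes passed 2-fold in the sensitive-labelled library, where 16.5% of genes did, and 2 of 4 in the resistant-labelled library, where 21.9% did. As a mean over cells, Bax passed as well in the sensitive-labelled library (2.66, against 1.47 over summed UMIs) and Cdkn1a in the resistant-labelled library (2.15), and with cell types set from each cell's own marker UMIs Cdkn1a passed in the sensitive-labelled library (2.18). Both comparisons share the control-labelled library with its 24 macrophage-like cells. Immediate-early genes summed to 5800, 4772 and 4034 CPM in macrophage-like cells of the 3 libraries, and were thus not higher in the treated libraries. Neutrophil markers in the same cells summed to 2265, 6831 and 1269 CPM, highest in the sensitive-labelled library, and their part in the Mdm2 and Cdkn1a values was not tested.

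In cancer-like cells 0 of 7 genes were called higher in the resistant-labelled library, but Mdm2 depended on the setting. Cdkn1a was at 84.7 CPM [62.9, 111.6] in the control-labelled and 46.6 CPM [33.4, 63.2] in the resistant-labelled library (ratio 0.55 [0.36, 0.85]), but 56.0% of the control's 50 UMIs came from 1 cell, and the ratio was 1.40 with cell types set from each cell's own marker UMIs and 1.23 with a higher minimum of detected genes, so its direction was not settled. Ccng1 passed 2-fold downward, at 33.9 against 15.9 CPM (0.47 [0.22, 0.98]), and was the 1 of 7 genes that passed, where 12.2% of genes did. Its ratio was 0.61 with a higher minimum of detected genes, which ends the call, and 0.28 without the deepest 10% of cells. Mdm2 was at 20.3 against 35.2 CPM (1.73 [0.87, 3.71]), and at 3.06-fold, past the threshold, as a mean over cells. The Bbc3 ratio of 0.62 was 0.26, past 2-fold lower, as a mean over cells. Bax was at 145.7 against 106.9 CPM (0.73 [0.54, 0.99]). Proliferation genes summed to 851.9 CPM in control-labelled and 255.8 CPM in resistant-labelled cancer-like cells. Neutrophil markers in these cells summed to 1734 and 925.3 CPM and fibroblast markers to 130.4 and 48.9 CPM. Their part in the Cdkn1a and Ccng1 values was not tested. Trp53 was at 35.6 and 31.8 CPM, and its ratio ran from 0.46 as a mean over cells to 1.42 without the deepest 10% of cells. Cdkn1a was 6.20-fold [4.16, 9.25] higher in macrophage-like than in cancer-like cells of the control-labelled library and 19.7-fold [14.2, 28.1] of the resistant-labelled library, so that cancer-like cells were below macrophage-like cells in both.

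Fibroblast-like cells were few. Cdkn1a was at 172.8 CPM [112.9, 253.2] in the control-labelled and 247.6 CPM [170.5, 347.8] in the resistant-labelled library, from 26 and 33 UMIs of which 1 cell held 65.4% and 54.5%, and the ratio of 1.43 [0.83, 2.50] was within counting error. Bax, the only other gene with enough UMIs, was at 106.3 against 210.1 CPM (1.98-fold [1.03, 3.91]). Epithelial markers in these fibroblast-like cells summed to 770.8 and 1343 CPM, and their part in the values was not tested. The fibroblast-like over cancer-like ratio of Cdkn1a was 2.04-fold [1.22, 3.34] in the control-labelled library and 5.31-fold [3.25, 8.61] in the resistant-labelled library. That of Ccng1 was 0.78 [0.20, 2.34] and 4.72 [1.87, 11.4], from 4 and 10 fibroblast-like UMIs, and the intervals overlapped. For Trp53 it was 0.56 [0.11, 1.88] and 0.71 [0.14, 2.29], and for Phlda3 0.62 [0.12, 2.1] and 1.49 [0.55, 3.45]. For Bax it was 0.73 [0.40, 1.25] and 1.97 [1.24, 3.03]. Mdm2 had enough UMIs in the resistant-labelled library alone, at 0.43 [0.05, 1.67]. Fibroblast-like cells held at most 7 UMIs of Trp53, Phlda3 or Mdm2.

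**Figure D4:**
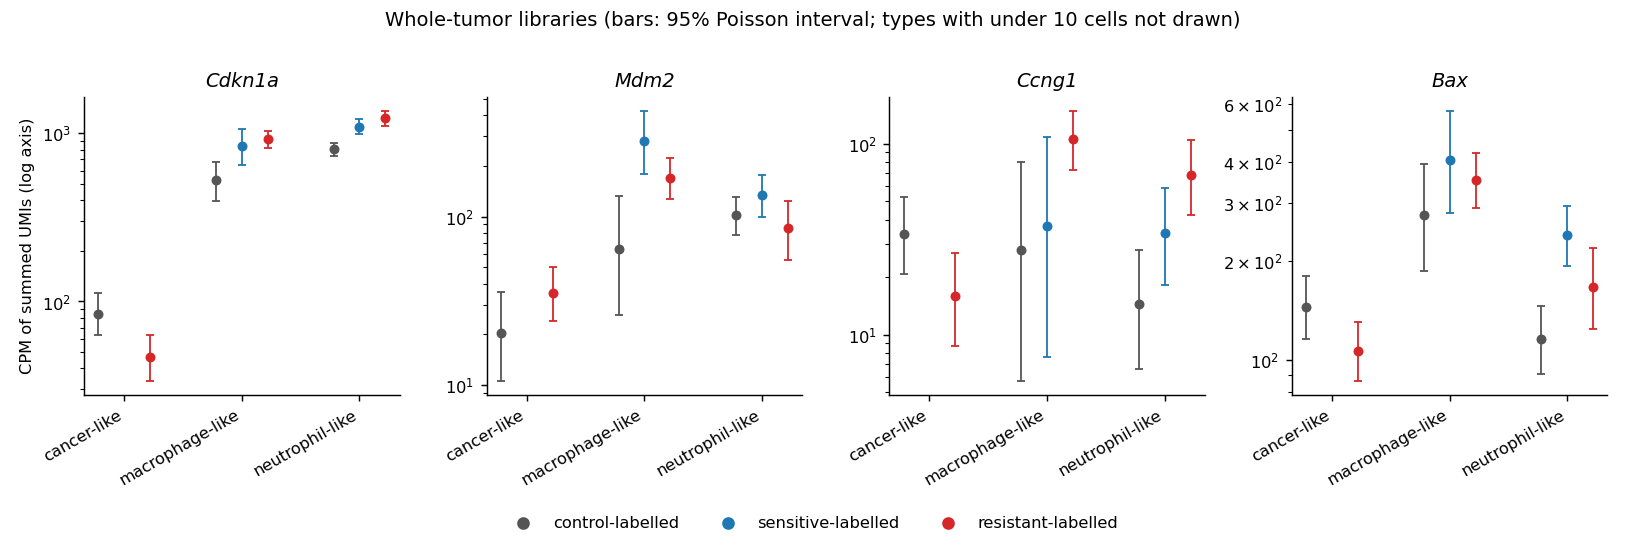
Level of 4 genes in the control-labelled (grey), sensitive-labelled (blue) and resistant-labelled (red) whole-tumor library, as CPM on log axes with exact 95% Poisson intervals, for types with at least 10 cells. In macrophage-like cells Mdm2 lies at 64.4 CPM in the control-labelled and at 283.6 and 169.8 CPM in the treated libraries, while Cdkn1a in cancer-like cells lies at 84.7 and 46.6 CPM.

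Neutrophil-like cells were the deepest whole-tumor group in cell number. Cdkn1a was at 806.4 CPM [737.2, 880.4] in the control-labelled library, 1098 CPM [996, 1209] in the sensitive-labelled and 1228 CPM [1107, 1359] in the resistant-labelled library, 1.36-fold [1.19, 1.55] and 1.52-fold [1.33, 1.74] higher. In the sensitive-labelled library 3 of 6 genes passed 2-fold, all higher, where 14.5% of genes did: Bax, at 239.7 against 116.4 CPM (2.06-fold [1.496, 2.85], but 1.14-fold after thinning to 500 UMIs), Trp53inp1, at 36.9 against 9.70 CPM (3.80-fold [1.37, 12.1]), and Ccng1, at 34.2 against 14.5 CPM (2.35-fold [0.93, 6.24], but 1.66-fold as a mean over cells). In the resistant-labelled library Ccng1 was the 1 of 5 that passed, where 14.2% of genes did, at 68.8 against 14.5 CPM (4.73-fold [2.08, 11.7]). Mdm2 did not differ beyond counting error, at 101.8, 134.3 and 85.2 CPM, but after thinning its ratio in the resistant-labelled library was 0.46, past 2-fold lower, against 0.84 without thinning. Of the further p53 targets, Fas, a death receptor, was at 35.5, 92.2 and 131.0 CPM and Pmaip1 at 54.9, 121.2 and 114.6 CPM, both past 2-fold in both treated libraries. They were 2 of the 9 further targets with enough UMIs in each comparison, singled out after their values were seen. Immediate-early genes summed to 6437 CPM in neutrophil-like cells of the control-labelled and to 7818 and 6741 CPM in those of the treated libraries, and their part was not tested. These comparisons share the control-labelled library, so their likeness is not independent.

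Within each of the 3 largest neutrophil-like clusters the Poisson intervals of Cdkn1a in the control-labelled and the treated libraries overlapped. Cluster 0 had 1273 CPM in the control-labelled library against 1174 and 1314 CPM in the sensitive-labelled and resistant-labelled libraries. Cluster 2 had 1820 CPM against 1739 and 1572 CPM, and cluster 1 had 533.5 CPM against 390.5 and 721.3 CPM. The shares of the clusters differed. Cluster 1 held 40.0% of the control-labelled library's neutrophil-like cells and 17.5% and 28.9% of the treated libraries', and cluster 8 (Ngp and Camp, granule genes of immature neutrophils), where Cdkn1a was at 188.7 CPM in the control, held 9.35% against 0.85% and 0.74%. Cluster 5 (Acod1, Asprv1) held 1.29% against 16.2% and 27.4%, with Cdkn1a at 1066 and 1570 CPM in the treated libraries.

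**Figure D5:**
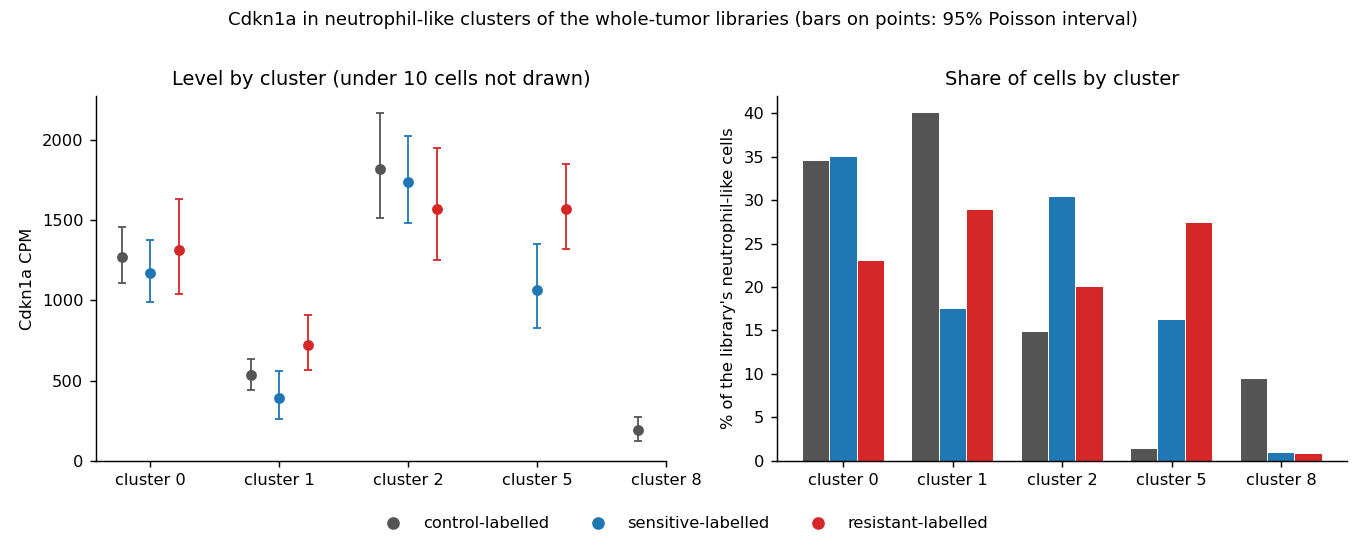
Left, Cdkn1a level in CPM with exact 95% Poisson intervals in each neutrophil-like cluster of the whole-tumor libraries, for clusters with at least 10 cells in a library; right, percentage of each library's neutrophil-like cells in each cluster. In clusters 0, 1 and 2 the control and treated intervals overlap, while cluster 1, at 533.5 CPM in the control, holds 40.0% of control-labelled and 17.5% and 28.9% of treated cells.

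Over the 10 pairs of cell type and T cell library, the genes whose level pattern was most like that of Cdkn1a included Emilin2, Arhgap24, Rab32 and Gm5617, with Pearson's r of 0.946 to 0.972 on log2(CPM + 10) among 11063 other genes with at least 200 UMIs. Those most like Mdm2 were Mmp8, Ipmk, Fnip2, Snx18 and Mcl1 (r of 0.955 to 0.977). Between Cdkn1a and Mdm2 themselves r was 0.823, both being highest in neutrophil-like cells, whereas Phlda3 had r of 0.10 with Cdkn1a and -0.31 with Mdm2. The points share libraries and clustering, and the correlations are a description.

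Positions of the genes in GENCODE vM21 (GRCm38, the build of the files) are Trp53 chr11:69580359-69591873, Cdkn1a chr17:29090976-29100727, Mdm2 chr10:117688875-117710758, Ccng1 chr11:40748552-40755311, Bax chr7:45461697-45466898, Phlda3 chr1:135766119-135769136, Trp53inp1 chr4:11156431-11174379, Zmat3 chr3:32334792-32366014, Eda2r chrX:97333840-97377216 and Bbc3 chr7:16308393-16318205, all protein-coding genes whose counts pool all transcripts.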

How the data were processed

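Chromium 3′ scRNA-Seq was measured in 5 libraries. The authors aligned reads to mm10 with Cell Ranger (6.0.0 for the T cell and 3.0.1 for the whole-tumor libraries, per the file headers) and deposited UMI counts per gene and barcode without normalization. A barcode passed with 500 or more detected genes and mitochondrial UMIs up to 10% (T cell libraries), or with 200 genes and 20% (whole tumor, where 37 mitochondrial features all had 0 UMIs). A Scrublet-type score removed 112 and 159 putative doublets from the sensitive and resistant T cell library, 0.8% per 1000 barcodes, and none from whole tumor. This left 3448 and 3091 cells of 3949 and 6116 barcodes, and 488, 269 and 263 of 501, 278 and 275 in the control-labelled, sensitive-labelled and resistant-labelled libraries. The libraries of each set were scaled to 10000 UMIs per cell, log-transformed and clustered together (2000 variable genes without the p53 genes, 30 principal components, 15 neighbors, Leiden resolution 1) with Python 3.11.15, NumPy 2.4.6, SciPy 1.17.1, scikit-learn 1.9.0 and leidenalg 0.10.2. A cluster took the type with the highest mean marker level among types with at least 3 markers seen in 10% of its cells, so types rest on this rebuilt clustering and need not equal the study's.

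UMIs were summed per library and type. With 1 library per group no test was made. A ratio was called past 2-fold with at least 20 UMIs over both sides. In whole tumor, comparisons needed 10 cells per side and 3 genes with enough UMIs. A count of 0 was set to 3 counts for limits. The ratio code was run on simulated Poisson counts with known folds and no spread between cells. Calls there were scaled by the median gene ratio, unlike the main values. Of further p53 genes, those called the same way in both T cell libraries were named, up to 10 by the smaller of the 2 log2 ratios. Mdm4 was named in addition, and Fas and Pmaip1 in whole tumor, after their values were seen. For Cdkn1a and Mdm2 the 5 genes with the highest Pearson's r were taken, of which 1 is not reported here. The 10 genes and all lists were chosen with earlier results of these data known. The 12 planned and 2 later alternatives are given in the closing section.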

Additional observations from a re-analysis of the deposited data

Results flagged for a closer look

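For 3 genes the sensitive over resistant ratio in the T cell libraries passed 2-fold in 1 cell type while its interval lay on the other side of 1 in another type. With 1 library per group the difference between types was not tested. Cdkn1a had a ratio of 0.19 in cancer-like cells, against 1.25 [1.14, 1.36] in neutrophil-like and 1.86 [1.67, 2.08] in T cell-like cells. The Cdkn1a ratio was 0.44 in cancer-like cells as a mean over cells and 1.10 in T cell-like cells without the clusters drawn mostly from 1 library. Phlda3 had a ratio of 3.47 in macrophage-like cells, against 0.74 [0.56, 0.99] in cancer-like and 0.89 [0.85, 0.94] in fibroblast-like cells, where it was 1.03 when the p53 genes were left in the clustering. Trp53inp1 had a ratio of 0.39 in cancer-like cells, against 1.25 [1.05, 1.49] in T cell-like cells. The cancer-like Trp53inp1 ratio was 0.51 to 0.54 under 4 of the alternatives. The Phlda3 ratio was 2.27 in macrophage-like cells without the clusters drawn mostly from 1 library. The cancer-like values rest on 24 Cdkn1a and 11 Trp53inp1 UMIs in the sensitive library.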

How the results depend on the processing

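No paired analysis was possible because each group is 1 library and no result comes from a test. The number of genes past the threshold in either direction between cancer-like and fibroblast-like cells ranged from 5 to 8 in the sensitive library and from 5 to 9 in the resistant library over the alternatives run, with 9 at a threshold of 1.5-fold (8 lower, and Bbc3 higher) and 5 in both after thinning. The pairs past 2-fold between the T cell libraries (4) numbered 2 with cells thinned to 1000 UMIs and 10 at a threshold of 1.5-fold. After thinning 0 of those 4 had enough UMIs, and the 2 were others, Cdkn1a in T cell-like and Trp53 in macrophage-like cells. The whole-tumor pairs past 2-fold (8) numbered 1 with cells thinned to 500 UMIs, 2 at a minimum of 50 UMIs and 14 at 1.5-fold. Of those 8, Bax in neutrophil-like cells alone had enough UMIs after thinning and no longer passed, and the 1 that did was Mdm2 in neutrophil-like cells of the resistant-labelled library, which was lower. Fewer pairs had enough UMIs after thinning (26 of 42 and 7 of 25) and at the minimum of 50 UMIs (14 of 25). Of 997 single ratios recomputed, 910 stayed within their counting interval, 87 moved out of it and 0 of those past 2-fold changed direction. The 2 alternatives chosen after seeing the data, leaving out barcodes held by both T cell libraries and clusters drawn over 80% from 1 library, gave 4 and 5 pairs between the T cell libraries, and the cluster alternative gave 6 in whole tumor. Depth limits the whole-tumor values, where the compared types held as few as 81101 UMIs.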
